A study of Mus musculus with 4 samples.

Results

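Thymic monocytes were taken from single-cell RNA profiles of the mouse thymus by the number of unique molecular identifiers (UMIs, counted RNA molecules) that 8 genes gave in each cell. A cell was kept when it had at least 5 UMIs of Ly6c2, 2 of Ccr2 and 20 of Lyz2, at most 2 of Siglech, none of Xcr1 and fewer than 30 over C1qa, C1qb and C1qc together. This gave 339 monocytes among 23549 cells of 3 libraries: 141 of 7646 cells in CD11c-YFP replicate 1, 34 of 9684 in CD11c-YFP replicate 2 and 164 of 6219 in MaFIA replicate 2. The levels of these 8 genes chose the cells and are given below as a description, with no test.

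Classical monocytes are made in the bone marrow from progenitors, circulate in the blood and enter tissues with the help of CCR2, the receptor for the chemokine CCL2. Ly6c2 encodes the surface protein Ly6C, by which they are commonly stained in mice. In tissues such cells can lose Ly6C, begin to express MHC class II, which presents peptides to CD4 T cells, and turn into macrophages or into cells that resemble dendritic cells. The thymus holds few of them beside its resident macrophages, which clear the many thymocytes that die there, and its dendritic cells, which present self antigens.

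The study compared myeloid cells of the thymus by fluorescent reporters in C57BL/6 mice. CD11c-YFP mice carry Itgax-Venus, a yellow fluorescent protein under the promoter of Itgax (CD11c), and were 9 weeks old. MaFIA mice carry Csf1r-EGFP-NGFR/FKBP1A/TNFRSF6, a green fluorescent protein and an inducible death receptor under the promoter of Csf1r, and were 5 weeks old. Fluorescent cells were enriched on Percoll, sorted and run on the 10x 3' v3 system, with 2 libraries per line. A cell had to express its line's reporter to enter the sort, so monocytes without it are missing from these data to an unknown extent. The lines also differ in age and in sex (male CD11c-YFP mice, a female MaFIA mouse, per the study's methods).

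MaFIA replicate 1 had a median of 3981 UMIs per barcode, against 15759 to 17493 in the other libraries, gave 1 monocyte in 5493 cells and was left out of every comparison. The others held 126700210 to 185882793 UMIs each. Of the barcodes, 10 to 25 were shared by any pair of libraries, and none of these was a monocyte in both libraries of a pair. Xist and the Y-linked genes matched the stated sexes, and YFP RNA was at 1679 and 1576 normalized CPM in CD11c-YFP monocytes, against 0.382 in MaFIA monocytes. CPM, the usual depth-scaled count unit, were computed on UMIs summed here over the cells of a population in a library and, where called normalized, scaled by TMM factors. EGFP RNA was at 4.96 normalized CPM in MaFIA monocytes, so that the green reporter was hardly seen in RNA.

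Monocytes made up 1.84% of the cells in CD11c-YFP replicate 1 (95% exact binomial interval 1.55 to 2.17%), 0.351% in CD11c-YFP replicate 2 (0.243 to 0.490%) and 2.64% in MaFIA replicate 2 (2.25 to 3.07%). The mean was 1.61% ± 1.16 (SD, n = 3). The CD11c-YFP libraries thus lay further apart from each other than either interval is wide, and intervals cover counting error only. Median depth was 13804, 16467 and 14519 UMIs per monocyte in that order of libraries, in which 3 values are given throughout.

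Near the limits of the gate, 13 monocytes had 5 to 6 Ly6c2 UMIs, and 33 cells were left out with 3 to 4. For Ccr2, 22 monocytes sat at 2 UMIs and 20 cells were left out at 1. The complement limit left out 195, 53 and 133 cells that met every other condition but had 30 or more C1q UMIs, and pooled over the libraries 19 monocytes had 20 to 29 C1q UMIs, against 16 left out with 30 to 39. In these cells with high C1q, Plac8 was at 957, 375 and 1196 CPM and Mertk at 27.7, 27.4 and 98.2 CPM.

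The cells carried the marker RNAs of classical monocytes (described without a test, since they were given with the choice of cells). Ly6c2 (ENSMUSG00000022584, GRCm39 chr15:74980003-74988467) was at 2924, 2690.2 and 5127 normalized CPM in monocytes, against 22.02, 10.8 and 28.3 in macrophages. Ccr2 (ENSMUSG00000049103, chr9:123901982-123913594) was at 930.03, 743 and 695 normalized CPM in monocytes. Plac8 (ENSMUSG00000029322, chr5:100701591-100720111), a small cysteine-rich protein of leukocytes, was at 2455, 2401 and 5519 normalized CPM in monocytes, 83.3, 59.3 and 71.9 in macrophages and 1187, 691 and 588 in dendritic cells. Ly6c2 and Plac8 stood about as high in both CD11c-YFP libraries and higher in the MaFIA library. Neither belongs to monocytes alone, as thymic B cells had Ly6c2 at 953, 902 and 518 CPM and Plac8 at 1697, 1409.7 and 969.7 CPM. Reads of Ly6c2 can be shared with its close copies Ly6c1, Ly6a2 and Ly6i, whose separate values are therefore uncertain.

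Chil3 (ENSMUSG00000040809, chr3:106054870-106074880), a chitinase-like secreted protein, was at 37.4, 40.6 and 377 normalized CPM in monocytes, and its level in the MaFIA library was the highest by far. Fn1 (ENSMUSG00000026193, chr1:71624673-71692419), the matrix protein fibronectin, was at 13.8, 25.8 and 72.5 normalized CPM in monocytes, 5.78, 6.799 and 0.936 in macrophages and 0.575, 1.804 and 0 in dendritic cells. Summed over the cells, both were higher in monocytes than in macrophages and dendritic cells in every library, weakly in the CD11c-YFP ones. Most single monocytes gave no UMI of them. With each cell reduced to 5000 random UMIs, a Chil3 UMI was found in a mean of 16.5% of monocytes and a Fn1 UMI in 9.17%. Of 22 neutrophil genes, 16 did not pass the filter on low counts, Ly6g, Elane and Camp being at 0 in all 3 monocyte libraries. S100a8, which passed it, was at 0, 0 and 9.92 normalized CPM in monocytes. The neutrophil list summed to 131, 107 and 186 normalized CPM in monocytes, 57.8, 55.5 and 61.4 in macrophages and 92.3, 137 and 111 in dendritic cells. Of the 6 that passed, 4 were higher in monocytes than in macrophages, among them Il1r2, Cd177 and Hdc, and none was lower, and the part of neutrophil RNA in any result was not tested. B cell genes summed to 330.3, 420.4 and 618 normalized CPM and T cell genes to 232, 278 and 142 normalized CPM in monocytes, and the part these had in any result is given with it where it was measured.

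**Figure D1:**
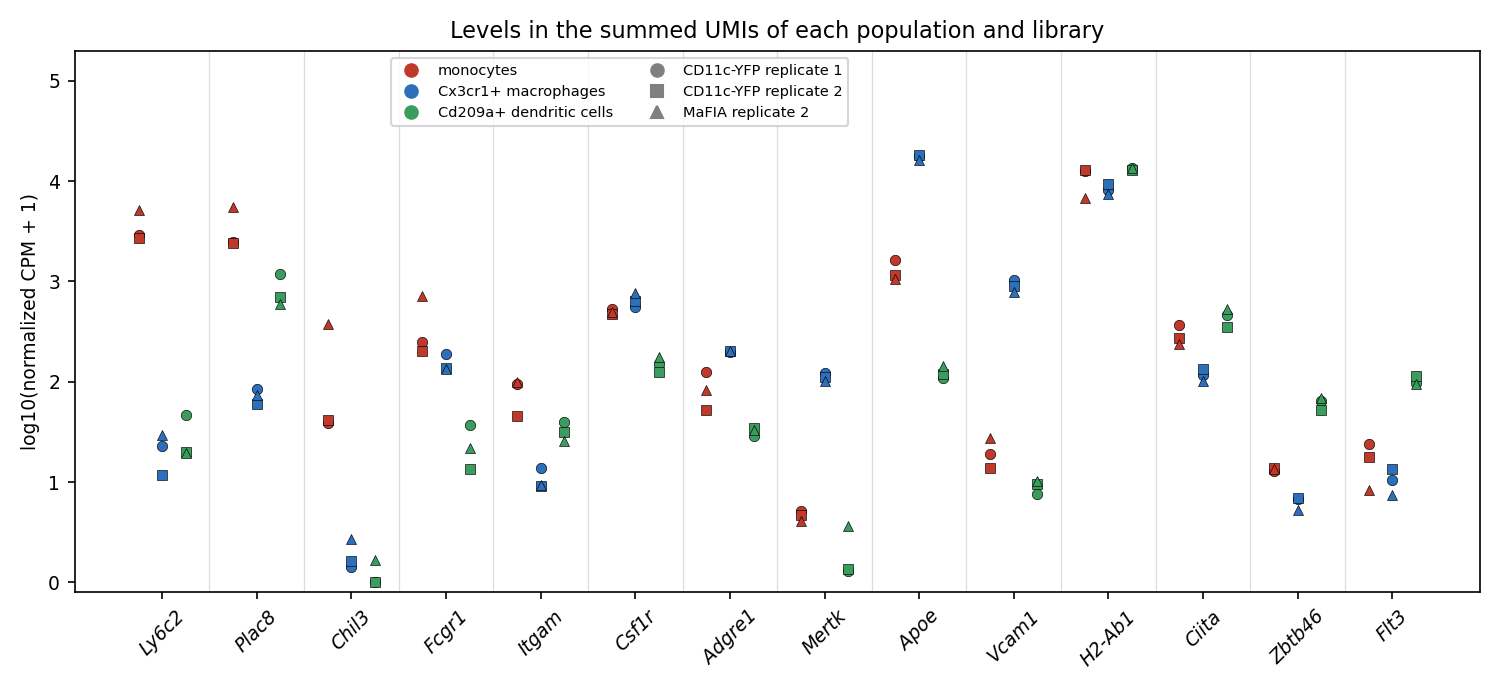
Level of 14 genes, as log10 of normalized CPM plus 1, in monocytes (red), Cx3cr1+ macrophages (blue) and Cd209a+ dendritic cells (green), 1 point per library (circle CD11c-YFP replicate 1, square CD11c-YFP replicate 2, triangle MaFIA replicate 2). Monocytes stand above both other populations for Ly6c2, Plac8 and Chil3, far below macrophages for Mertk, Apoe and Vcam1, and below dendritic cells for Zbtb46 and Flt3.

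The first comparison set monocytes against Cx3cr1+ macrophages, the resident population that the study relates to them. The macrophages were the 347, 569 and 228 cells with at least 20 Lyz2, 30 C1q and 2 Cx3cr1 UMIs, without Timd4 and with under 5 Ly6c2 UMIs, within the same Siglech and Xcr1 limits. Monocytes had less RNA of most core macrophage and lysosomal enzyme genes and more RNA of most classical monocyte genes, while genes for the uptake of dying cells and for adhesion went both ways. The lysosomal enzyme list summed to 12479, 11330.4 and 12159 normalized CPM in monocytes, against 29624, 27065 and 29569 in macrophages. Of 10723 genes tested, 1865 (17.4%) were higher and 1633 (15.2%) lower in monocytes by edgeR at an adjusted p under 0.05, 32.6% in all. Both populations were defined by gene levels in the same cells, so genes that go along with the gate genes differ partly by that choice, and the tests describe how steadily the gated cells differed over 3 libraries. The 16 genes read by any gate and the 3 further markers were not tested. Scaling by library size alone moved the median log2 fold change of all genes to -0.0968, against 0.0107 with TMM factors.

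Mertk, a receptor for apoptotic cells, was at 4.097, 3.69 and 3.05 normalized CPM in monocytes, against 119.9, 109.8 and 101 in macrophages (log2 fold change -4.95 ± 0.29, adjusted p = 2.7e-06, errors being SE). Every monocyte library lay far below every macrophage library. After each cell was reduced to 5000 random UMIs, a Mertk UMI was found in 0, 2.94 and 1.22% of monocytes and 44.1, 42.4 and 40.8% of macrophages. The share in B cells, which should lack the gene, was 0, 0.298 and 0.956%. The 0 of 141 cells allows a share of up to 2.13%, which limits cells with a UMI at this depth and not cells that express the gene. Without that reduction the shares were 2.84, 5.88 and 3.66% of monocytes, 73.5, 71.9 and 78.9% of macrophages and 0.206, 0.596 and 1.91% of B cells.

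Apoe, a lipid carrier abundant in macrophages, was at 1633, 1151 and 1049 normalized CPM in monocytes, against 17808, 18188 and 16406 in macrophages (log2 fold change -3.78 ± 0.17, adjusted p = 6.7e-07; named after its values were seen). Vcam1, an adhesion molecule of resident macrophages, was at 17.9, 12.9 and 26.7 normalized CPM in monocytes, against 1029, 906 and 775 in macrophages (log2 fold change -5.43 ± 0.22, adjusted p = 3.1e-07). Adgre1, which encodes F4/80, was at 124, 51.6 and 82.4 normalized CPM in monocytes, against 197, 201 and 204 in macrophages (log2 fold change -1.17 ± 0.21, adjusted p = 0.0018). The loss of F4/80 RNA was thus smaller than that of Mertk or Vcam1 RNA, though the groups did not overlap for any of them.

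Of the 26 core macrophage genes tested, 20 were lower and 1 higher in monocytes, with a median log2 fold change of -1.79, against 0.01 over all genes. The 1 that was higher was Fcgr1, which encodes the Fc receptor CD64 and was at 246, 203 and 707 normalized CPM in monocytes, against 187, 137 and 133 in macrophages (log2 fold change 1.20 ± 0.37, adjusted p = 0.033). Fcgr1 missed the threshold without MaFIA replicate 2 (log2 fold change 0.39, adjusted p = 0.14) and without CD11c-YFP replicate 2 (1.496, adjusted p = 0.077). Its level in the MaFIA library was the highest of the monocyte libraries. A Fcgr1 UMI was found in 58.2, 44.1 and 76.8% of monocytes at 5000 UMIs per cell, against 0.412, 0.894 and 1.19% of B cells. Csf1r, whose protein takes up the survival signal of macrophages, was at 530.1, 478 and 499.6 normalized CPM in monocytes and 552, 637 and 759 in macrophages, a difference that did not pass the test (log2 fold change -0.36 ± 0.13, adjusted p = 0.051).

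Most genes for the digestion of engulfed material were lower in monocytes. Of 39 lysosomal enzyme genes, 30 were lower and 1 higher, with a median log2 fold change of -1.04. Ctsd, the protease cathepsin D, was at 139, 160.4 and 154 normalized CPM in monocytes, against 2851, 2637 and 2971 in macrophages (log2 fold change -4.25 ± 0.17, adjusted p = 3.1e-07). Acp5, an acid phosphatase, was lower with a log2 fold change of -2.92 (adjusted p = 7.6e-06). The exception was the sulfatase gene Arsb, higher with a log2 fold change of 0.88 (adjusted p = 0.0053), which missed the threshold without CD11c-YFP replicate 2 (0.78, adjusted p = 0.062).

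Genes for the uptake of apoptotic cells were more often lower than higher. Of 24 tested, 10 were lower and 5 higher in monocytes (median log2 fold change -0.23), where 15.2% of all genes were lower and 17.4% higher. The list summed to 2485, 3028 and 3217 normalized CPM in monocytes, against 3259, 3593 and 4133 in macrophages. Gas6, the ligand that bridges dying cells to Mertk, was at 0.512, 0 and 0.382 normalized CPM in monocytes, against 37.3, 27.5 and 26.2 in macrophages. The scavenger receptor gene Stab2 was lower with a log2 fold change of -4.90 (adjusted p = 0.00062). Anxa2, an annexin, was higher, at 231, 336 and 591 normalized CPM in monocytes, against 57.3, 67.1 and 90.8 in macrophages (log2 fold change 2.37 ± 0.17, adjusted p = 6.4e-06).

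The largest losses among well expressed genes were those of Pf4, a chemokine (log2 fold change -7.59 ± 0.25, adjusted p = 1.6e-07), the proton pump subunit Atp6v0d2 (-7.08), the secreted phospholipase Pla2g2d (-6.86), the matrix protease Mmp2 (-6.66), the cytokine gene Il1a (-6.66), Gpnmb (-6.61), Npnt (-6.56) and Chst2 (-6.47), all with adjusted p of 1.8e-05 or less. Pf4, for example, was at 1.02, 1.84 and 1.14 normalized CPM in monocytes, against 98.7, 208 and 344 in macrophages. Chemokine genes as a list had 7 lower and 2 higher of 17, with Ccl8 and Ccl12, attractants for monocytes, lower with log2 fold changes of -5.10 and -2.80. Ccl12 nevertheless differed widely among the monocyte libraries, at 69.1, 9.22 and 145 normalized CPM.

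Classical monocyte genes other than the 3 markers were mostly higher: 18 of 24 tested were higher and 1 lower than in macrophages, with a median log2 fold change of 2.16. Hp, the haemoglobin-binding protein haptoglobin, was at 14.3, 42.4 and 155 normalized CPM in monocytes, against 0, 0.971 and 0.562 in macrophages (log2 fold change 6.65 ± 0.45, adjusted p = 5.2e-06). S100a4, a calcium-binding protein, was at 2516, 2965 and 3379 normalized CPM in monocytes, against 584, 759 and 1436 in macrophages (log2 fold change 1.74 ± 0.19, adjusted p = 0.00011). The gene that was lower was Lpl, lipoprotein lipase (log2 fold change -2.13, adjusted p = 0.003).

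With the untested markers set aside, Ly6a2 was among the other genes most raised over macrophages. It was at 11.3, 33.2 and 86.3 normalized CPM in monocytes, against 0.275, 0 and 0 in macrophages. Others were the angiotensin-converting enzyme gene Ace (log2 fold change 6.00 ± 0.57, adjusted p = 4.4e-05), Ifitm6 (5.27), Trem3 (5.22) and Slfn4 (4.84). Ace and Adgre4 (3.53, adjusted p = 3.1e-06) also belong to a list of nonclassical monocyte genes, the patrolling kind with little Ly6C, of which 9 of 17 were higher and 1 lower. Adgre4 stood at 71.2, 29.5 and 63.4 normalized CPM in monocytes, against 7.16, 3.44 and 3.74 in macrophages and 7.47, 4.69 and 4.66 in dendritic cells.

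Among 24 adhesion and trafficking genes, 13 were higher and 5 lower, while their summed level was not higher, at 2613, 2653 and 3000.2 normalized CPM in monocytes, against 3091, 3033 and 3021 in macrophages. Itgam, which encodes CD11b, was at 94.2, 44.3 and 98.5 normalized CPM in monocytes, against 12.7, 8.21 and 8.42 in macrophages (log2 fold change 3.06 ± 0.22, adjusted p = 7.4e-06). The integrin gene Itgb7 was higher by 3.19 on the log2 scale and Itgb5 and Itga9 were lower, at -2.80 and -2.67.

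Among 39 transcription factor genes of myeloid cells, 19 were higher and 7 lower. Cebpb, a factor of monocytes and emergency myelopoiesis, was at 345, 426 and 527 normalized CPM in monocytes, against 115, 136 and 59.3 in macrophages (log2 fold change 2.18 ± 0.35, adjusted p = 0.001). The macrophage factor Spic was at 13.3, 1.84 and 19.5 normalized CPM in monocytes, against 79.0, 58.01 and 32.2 in macrophages (log2 fold change -1.87 ± 0.41, adjusted p = 0.0061), and missed the threshold without CD11c-YFP replicate 1 (-1.42, adjusted p = 0.064). Mitf and Tfec, related factors of lysosome-rich cells, were also lower (log2 fold changes -1.72 and -1.499). Among 21 glycolysis genes, 13 were higher and 1 lower, although their median log2 fold change was only 0.44.

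Of the 16 antigen presentation genes of MHC class II, 4 were higher and 1 lower than in macrophages, and the libraries disagreed in direction. Over all genes, 17.4% were higher and 15.2% lower. The list summed to 64752, 65436 and 38007 normalized CPM in monocytes, against 45878, 53059 and 41993 in macrophages. It was thus higher in monocytes in the CD11c-YFP libraries and lower in the MaFIA library, and the tests below average over these. Ciita, the factor that switches on MHC class II genes, was at 368, 269 and 237 normalized CPM in monocytes, against 115, 133 and 99.6 in macrophages (log2 fold change 1.31 ± 0.19, adjusted p = 0.00059). H2-DMb1, which helps to load peptides, was at 1117, 905 and 747 normalized CPM in monocytes, against 466, 482 and 488 in macrophages (log2 fold change 0.93 ± 0.13, adjusted p = 0.00042). H2-Ab1 and Cd74, a chain of the class II molecule and its chaperone, did not pass the test (log2 fold changes 0.34 ± 0.16, adjusted p = 0.14 and 0.28 ± 0.14, adjusted p = 0.16). The lysosomal protease gene Ctss, which cuts that chaperone, was lower with a log2 fold change of -0.42 (adjusted p = 0.0025), and missed the threshold without CD11c-YFP replicate 2 (adjusted p = 0.052).

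Proliferation genes were lower in 17 of 30 and higher in none, with a median log2 fold change of -1.06. The gap was not the same in both lines. CD11c-YFP minus MaFIA, the monocyte minus macrophage difference of this list had a median log2 value of -1.69, against 0.02 over all genes. Monocytes thus stood further below macrophages in the CD11c-YFP libraries than in the MaFIA library. Within monocytes, the difference of this list between the lines shrank without the cells that held T or B cell UMIs, as given further below. With these cells left out, 23 of 30 proliferation genes were lower in monocytes than in macrophages. For proliferation it was 8 of 30 without CD11c-YFP replicate 1 and again 8 of 30 without CD11c-YFP replicate 2. Over all genes, monocytes against Cx3cr1+ macrophages gave 2109 to 2850 calls when a library was left out.

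The second comparison set monocytes against Cd209a+ dendritic cells, type 2 dendritic cells that share several monocyte genes. These were 208, 168 and 68 cells with at least 3 Cd209a UMIs, under 30 C1q and under 5 Ly6c2 UMIs, at most 1 Ccr7 UMI and no Cd209d, within the same Siglech and Xcr1 limits. Monocytes had more RNA of most core macrophage genes and of many lysosomal enzyme genes, and less RNA of most dendritic cell genes, though neither population was without them. The dendritic cell list summed to 2315, 2388 and 1811 normalized CPM in monocytes, against 4129.7, 4171 and 4334 in dendritic cells. The lysosomal enzyme list summed to 12479, 11330.4 and 12159 normalized CPM in monocytes, against 5934, 5311 and 6114 in dendritic cells. By edgeR, 1122 of 10723 genes (10.5%) were higher and 821 (7.66%) lower in monocytes, 18.1% in all. The monocyte sums are those of the first comparison, and the caveat on populations chosen by gene levels holds here too. Without CD11c-YFP replicate 1 or replicate 2 the count fell to 1092 or 923 genes, and with no library term to 1217.

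Of 26 core macrophage genes, 23 were higher in monocytes than in dendritic cells and none was lower, with a median log2 fold change of 2.201. Fcgr1 was at 246, 203 and 707 normalized CPM in monocytes, against 36.2, 12.6 and 20.6 in dendritic cells (log2 fold change 3.93 ± 0.44, adjusted p = 0.00025). Csf1r was at 530.1, 478 and 499.6 normalized CPM in monocytes, against 148, 124 and 177 in dendritic cells (log2 fold change 1.76 ± 0.13, adjusted p = 2.2e-05). Adgre1 was higher by 1.52 ± 0.24, adjusted p = 0.0017 and Itgam by 1.37 ± 0.22, adjusted p = 0.0019 on the log2 scale.

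With the untested markers set aside, the largest gain over dendritic cells apart from Ly6a2 and Hp was that of the scavenger receptor gene Msr1 (log2 fold change 7.27 ± 0.51, adjusted p = 1.7e-05). Next came Aoah, which detoxifies bacterial lipopolysaccharide (7.20), Gpr84 (6.05), the lectin receptor gene Clec4e (5.97) and Pla2g7 (5.91). Msr1 was at 66.1, 60.8 and 140.4 normalized CPM in monocytes, against 0, 0.361 and 1.998 in dendritic cells and 104, 91.3 and 99.96 in macrophages, so that monocytes and macrophages overlapped. Some genes gave no UMI in the dendritic cells of any library. Among these were Ly6a2, whose monocyte levels are given above, and Vcan, a matrix proteoglycan, at 1.02, 1.84 and 73.7 normalized CPM in monocytes. C5ar1, the receptor for complement C5a, was at 4.097, 0 and 12.2 normalized CPM in monocytes. The levels of Vcan and C5ar1 rest mainly on the MaFIA library, so that no fold is given.

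Maf and Tfec were the transcription factor genes most raised over dendritic cells (log2 fold changes 4.99 ± 0.61, adjusted p = 0.00043 and 4.96 ± 0.37, adjusted p = 2.2e-05). Irf8, a factor of monocytes and of some dendritic cells, was at 365, 256 and 333 normalized CPM in monocytes, against 95.7, 67.1 and 56.6 in dendritic cells (log2 fold change 2.11 ± 0.16, adjusted p = 2.2e-05). Csf3r, the receptor for granulocyte growth factor, was higher by 4.59 ± 0.35, adjusted p = 2.2e-05. Of 34 innate sensing and cytokine genes, 20 were higher and none lower, among them Il1rn, an inhibitor of interleukin 1, at 187, 119.9 and 233 normalized CPM in monocytes, against 8.33, 6.49 and 21.3 in dendritic cells. Among 39 lysosomal enzyme genes, 22 were higher and 2 lower, with Lgmn and Acp5 at log2 fold changes of 2.49 and 2.36.

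Of 23 dendritic cell genes tested, 18 were lower and 1 higher in monocytes than in dendritic cells, with a median log2 fold change of -1.28. Zbtb46, a factor specific to dendritic cells among myeloid cells, was at 11.8, 12.9 and 12.6 normalized CPM in monocytes, against 62.7, 51.2 and 67.9 in dendritic cells (log2 fold change -2.30 ± 0.21, adjusted p = 6.9e-05). The same monocyte levels were higher than the 5.78, 6.005 and 4.31 of macrophages (log2 fold change 1.14 ± 0.24, adjusted p = 0.0055). Flt3, the growth factor receptor of dendritic cell precursors, was at 23.05, 16.6 and 7.25 normalized CPM in monocytes, against 96.6, 112 and 94.6 in dendritic cells (log2 fold change -2.71 ± 0.27, adjusted p = 0.00012). Kit, Irf4 and Klrd1 were lower as well (log2 fold changes -2.702, -1.89 and -3.56).

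Seen from macrophages, 13 of the same 23 dendritic cell genes were higher and 1 was lower in monocytes. Kmo, an enzyme of tryptophan breakdown, was at 68.6, 47.9 and 48.5 normalized CPM in monocytes, 11.1, 8.74 and 10.7 in macrophages and 178, 126 and 163 in dendritic cells. Cbfa2t3, a transcription corepressor, took the same middle place, at 245, 317 and 199 normalized CPM in monocytes, 48.3, 65.4 and 37.3 in macrophages and 488, 455 and 456 in dendritic cells.

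The sharpest losses against dendritic cells were those of Itgae, the integrin chain CD103 (log2 fold change -4.53 ± 0.27, adjusted p = 7.9e-06), the phosphatase inhibitor gene Ppp1r14a (-4.50), the chemokine receptor gene Cxcr2 (-4.28, but -1.92 with adjusted p = 0.15 without MaFIA replicate 2), Hepacam2 (-4.17), the tight junction gene Cldn1 (-4.10), Epcam (-3.96), the water channel gene Aqp3 (-3.69) and Septin3 (-3.61). Epcam, an adhesion molecule of epithelia and some dendritic cells, was at 18.9, 33.2 and 16.03 normalized CPM in monocytes, against 240.3, 364 and 386 in dendritic cells. Of the class II list, 5 of 16 were lower and 1 higher. The peptide-exchange genes H2-Oa, H2-Ob and H2-DMb2 were lower with log2 fold changes of -2.90, -2.66 and -2.63. H2-DMb2, for example, was at 58.9, 64.5 and 58.8 normalized CPM in monocytes, against 363, 376 and 375 in dendritic cells. Proliferation genes were lower in 27 of 30.

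The monocytes differed widely among themselves in MHC class II. H2-Aa, H2-Ab1, H2-Eb1 and Cd74 together took a median of 5.91, 5.49 and 1.37% of a monocyte's UMIs. In the MaFIA library the middle 50% of cells ran from 0.382 to 4.65%. In Cd209a+ dendritic cells the medians were 5.86, 5.93 and 6.23%, and in macrophages 3.95, 4.52 and 2.695%.

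A limit of 2%, chosen after the cells were seen, marked out 15 of 141 cells (10.6%, 95% exact interval 6.08 to 16.9%), 6 of 34 (17.6%, 6.76 to 34.5%) and 94 of 164 (57.3%, 49.4 to 65.0%). With each cell reduced to 5000 UMIs the shares were 9.93, 17.6 and 57.3%. Within 0.5 percentage points of the limit lay 5, 1 and 12 cells. The limit marks ranges of a measure, and whether the cells fall into separate types was not tested.

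Cells under the limit had a higher summed level of the classical monocyte list in every library, at 25612, 29304 and 32876 CPM, against 13933, 11773 and 19499 CPM in the rest, a list that includes the markers Plac8, Chil3 and Fn1. Not every member followed, as S100a4 was at 3153, 3396 and 2816 CPM under the limit, against 2365, 2774 and 3717 CPM in the rest, lower under the limit in the MaFIA library. Plac8 was at 7103, 8893 and 7733 CPM in cells under 2% class II, against 1882, 1219.9 and 2916 CPM in the rest. Ly6c2 was at 6968, 5771 and 6846 CPM, against 2399, 2068 and 3049 CPM. Chil3 was at 234, 211 and 690.3 CPM, against 15.4, 10.4 and 35.5 CPM. Between the libraries the cells under the limit had closer levels of Ly6c2 and Plac8 than all monocytes had. Fn1 was at 125, 112 and 132 CPM under the limit, against 1.65, 10.4 and 8.14 CPM in the rest. The YFP reporter itself was at 421 and 734 CPM in CD11c-YFP cells under the limit, against 1756 and 1654 CPM in the rest. Cells under the limit thus carried less of the RNA of the reporter by which CD11c-YFP cells were sorted.

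Across single monocytes, Spearman's rho of the class II share with Plac8 was -0.37 over 141 cells, -0.64 over 34 and -0.67 over 164, each cell reduced to 5000 UMIs. With Ciita it was 0.18, 0.58 and 0.45. Cells of a library share their animal and reagents, and the class II share is part of the same UMI total, so these are descriptions.

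**Figure D2:**
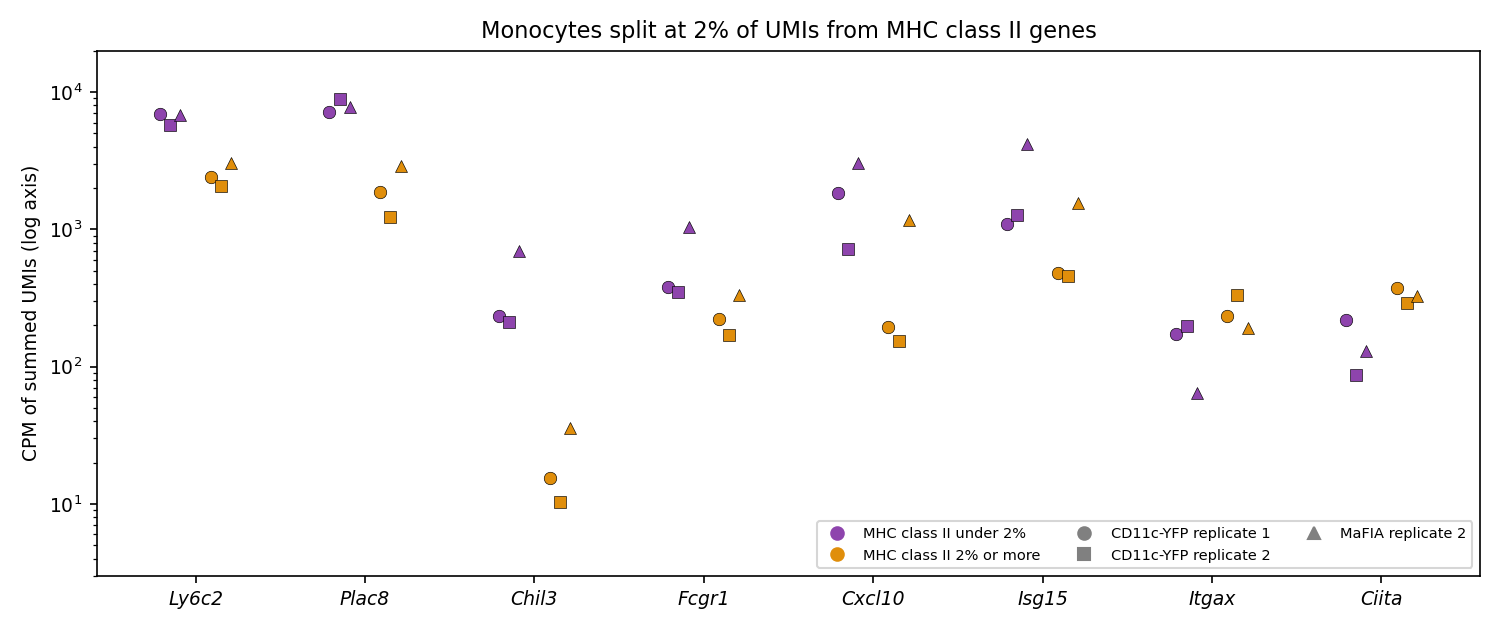
CPM (log axis) of 8 genes in monocytes with under 2% of UMIs from 4 MHC class II genes (purple) and with 2% or more (orange), 1 point per library, shaped as circle CD11c-YFP replicate 1, square CD11c-YFP replicate 2 and triangle MaFIA replicate 2. Ly6c2, Plac8, Chil3, Fcgr1, Cxcl10 and Isg15 are higher on the low class II side in each library.

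The third comparison set monocytes of the CD11c-YFP line against those of the MaFIA line. Only 1 MaFIA library could be used, so the fit had 1 residual degree of freedom and assumes that this library would vary as the CD11c-YFP libraries do. Reporter line, age, sex and library cannot be told apart in it. CD11c-YFP monocytes had much less interferon-stimulated RNA, more RNA of 4 of 16 class II genes and more RNA of immediate early genes. By edgeR, 140 of 9926 genes (1.41%) were higher and 193 (1.94%) lower in CD11c-YFP monocytes, 3.35% in all. The count was 145 genes by DESeq2 and 28 with a stricter gate of 10 Ly6c2 and 4 Ccr2 UMIs. Under that gate Cxcl10, the class II genes, Hp, Fcgr1, Id3, Nr4a3, Ccl3, Cxcl2, Vegfa, Cd14, Il27 and the proliferation genes named below kept their sign and missed the threshold.

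Of 35 interferon-stimulated genes, 32 were lower and none higher in CD11c-YFP monocytes, where 1.94% of all genes were lower, with a median log2 fold change of -1.66, against 0.01 over all genes. Ifit1, which binds foreign RNA, was at 72.7 and 79.3 normalized CPM in CD11c-YFP monocytes, against 671 in MaFIA monocytes (log2 fold change -3.15 ± 0.23, adjusted p = 0.00043). Cxcl10, a chemokine for activated T cells, was at 363 and 243 normalized CPM in CD11c-YFP monocytes, against 2182 in MaFIA monocytes (log2 fold change -2.83 ± 0.24, adjusted p = 0.00073). Ifit1bl1, a relative of Ifit1, was at 15.9 and 9.22 normalized CPM in CD11c-YFP monocytes, against 139.7 in MaFIA monocytes (log2 fold change -3.31 ± 0.31, adjusted p = 0.0014). In each of these the CD11c-YFP libraries were close together and the MaFIA library several times higher.

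The promoters of interferon-stimulated genes carry a sequence read by the STAT and IRF factors, the interferon-stimulated response element. Searched here on both strands as GAAA, any 2 letters and GAAA, it was found in 943 of 27025 promoters of 300 bases (3.49%, from 250 bases before to 50 after the start) and in 18 of the 27 promoters that could be matched of the 35 listed genes (66.7%). A match is a description of the letters only. The stretches of Ifit1 and Cxcl10 are shown because the levels of both genes are given above, with the matches in capitals (for Ifit1 the match reads on the other strand). Both are from RefSeq on GRCm38.p6, in the direction of the gene.
Ifit1 (chr19:34640774-34640843, + strand): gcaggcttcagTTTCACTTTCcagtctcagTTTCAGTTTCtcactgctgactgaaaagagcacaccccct
Cxcl10 (chr5:92349063-92349132, - strand): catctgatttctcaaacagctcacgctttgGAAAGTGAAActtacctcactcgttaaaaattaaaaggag

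The interferon-stimulated list summed to 6390 and 7326 normalized CPM in CD11c-YFP monocytes, against 22930 in MaFIA monocytes. The other populations had the same order with a smaller gap: 5623 and 5768 normalized CPM in CD11c-YFP macrophages, against 9456 in MaFIA macrophages, and 2490.3 and 2628 CPM in CD11c-YFP B cells, against 3886 CPM in MaFIA B cells. Within the cells under 2% class II the sums were 12879 and 12936 CPM in CD11c-YFP monocytes, against 30639 CPM in MaFIA monocytes. In the rest they were 5491 and 6095 CPM, against 13615 CPM. The difference between the lines was thus present on both sides of the class II limit.

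Interferon-stimulated genes were also high in monocytes relative to other cells. Against macrophages 22 of 35 were higher and 1, Bst2, was lower with a median log2 fold change of 0.87, and against dendritic cells 27 were higher and none lower (1.09). Bst2 missed the threshold against macrophages without CD11c-YFP replicate 1 (adjusted p = 0.086). Slfn4, a regulator found in myeloid cells, was at 64.02, 131 and 342 normalized CPM in monocytes, against 6.47, 0.971 and 11.04 in macrophages and 5.17, 1.08 and 5.33 in dendritic cells. Isg20, an exonuclease, was at 107, 118 and 547 normalized CPM in monocytes, against 23.3, 24.2 and 55.04 in macrophages. Without MaFIA replicate 2 the interferon-stimulated counts were 18 higher and 4 lower against macrophages (median 0.50) and 18 higher and 2 lower against dendritic cells (median 0.59). Without the library term only 9 and 7 of the interferon-stimulated genes passed.

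The difference between the lines was itself compared between monocytes and macrophages, in a model of the 9 sums of all 3 populations and libraries. By edgeR, 144 of 10723 genes (1.34%) differed in this way, of which 109 (1.02%) had a negative and 35 (0.326%) a positive difference, negative meaning that CD11c-YFP stood lower relative to MaFIA in monocytes than in macrophages. Among interferon-stimulated genes 9 of 35 had a negative and none a positive difference, with a median log2 difference of -0.86, against 0.02 over all genes. Ifit1 had a log2 difference of -1.71 ± 0.20, adjusted p = 0.004. In macrophages Ifit1 was at 57.1 and 61.6 normalized CPM in CD11c-YFP macrophages, against 162 in MaFIA macrophages. The interferon-stimulated count of 32 of 35 in monocytes alone was 7 under the stricter gate (median -1.61), and 10 without the cells that held T or B cell UMIs (median -1.80).

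**Figure D3:**
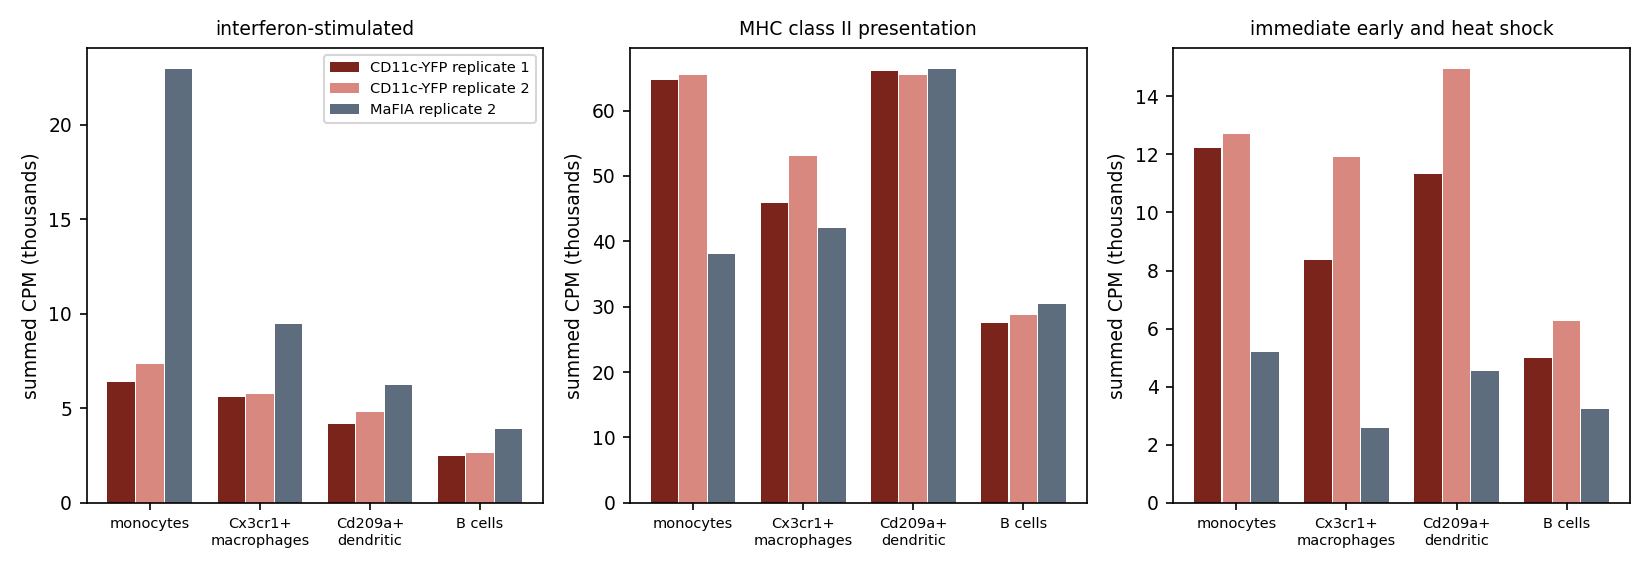
Summed CPM (normalized, but by plain totals in B cells) of 35 interferon-stimulated genes, 16 MHC class II presentation genes and 23 immediate early and heat shock genes, with 1 bar per library (dark red CD11c-YFP replicate 1, light red CD11c-YFP replicate 2, grey MaFIA replicate 2) in 4 populations, and bars from 0. The interferon sum of MaFIA monocytes, 22930 normalized CPM, stands above all others, and the immediate early sums of the MaFIA library are the lowest in each myeloid population.

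**Figure D4:**
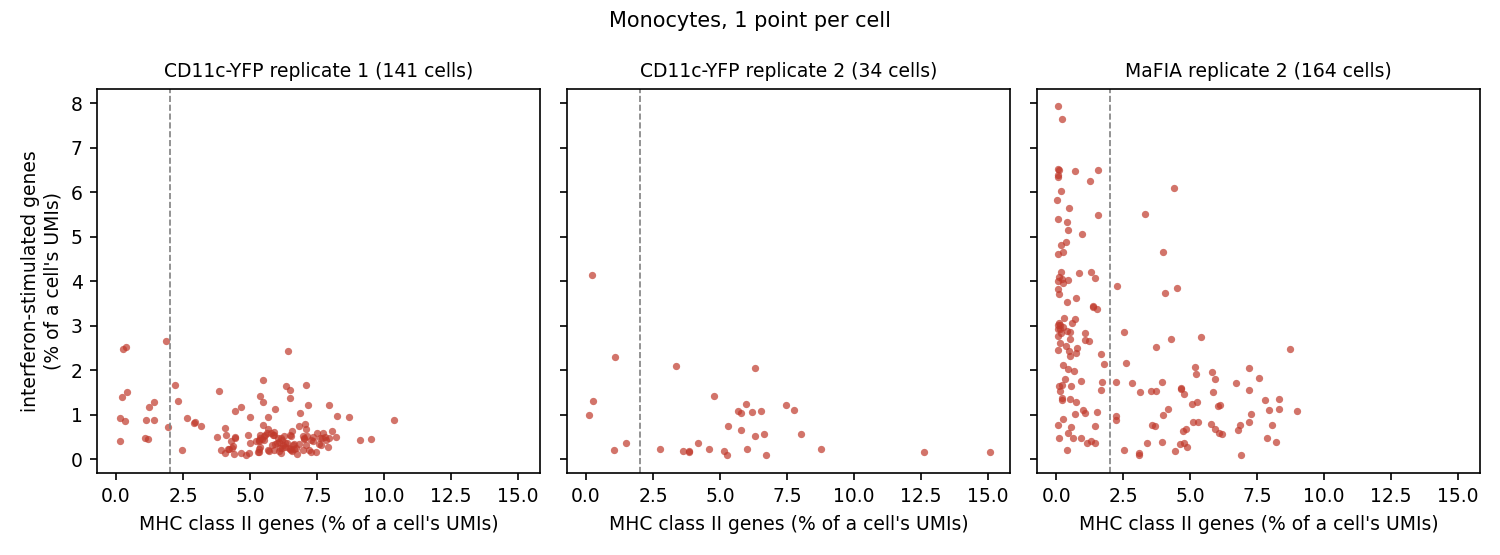
Share of UMIs from 35 interferon-stimulated genes (vertical axis, %) against the share from 4 MHC class II genes (horizontal axis, %), 1 point per monocyte, in 1 panel per library with the 2% limit dashed. Most CD11c-YFP cells lie right of the limit and low, and MaFIA cells spread over both sides, with a median interferon share of 1.87%, against 0.479 and 0.566% in the CD11c-YFP libraries.

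Of 16 class II genes, 4 were higher in CD11c-YFP monocytes, 1 was lower and 11 were not called, with a median log2 fold change of 0.33. The 4 encode chains of the class II molecule and its chaperone. H2-Aa, the alpha chain of the I-A molecule, was at 11488 and 11791 normalized CPM in CD11c-YFP monocytes, against 5202 in MaFIA monocytes (log2 fold change 1.16 ± 0.12, adjusted p = 0.0026). H2-Eb1, the beta chain of I-E, was at 10631 and 10425 normalized CPM in CD11c-YFP monocytes, against 5263 in MaFIA monocytes (log2 fold change 1.001 ± 0.12, adjusted p = 0.0045). H2-Ab1 and Cd74 were higher too (log2 fold changes 0.93 ± 0.12, adjusted p = 0.0051 and 0.70 ± 0.11, adjusted p = 0.011). The lower one was the costimulatory receptor gene Cd40, at 105 and 66.4 normalized CPM in CD11c-YFP monocytes, against 233 in MaFIA monocytes (log2 fold change -1.39 ± 0.29, adjusted p = 0.035). Ciita did not pass the test, with a log2 fold change of 0.44 ± 0.26, adjusted p = 0.52.

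Class II promoters are known for a Y box, bound by the factor NF-Y, on which the action of Ciita depends. The letters CTGATTGG, searched on both strands, were found in 1166 of the 27025 promoters (4.31%) and in 4 of the 11 matched promoters of the 16 class II genes (36.4%). The stretches below hold it in capitals, again from RefSeq on GRCm38.p6 and in the direction of the gene, and are shown for the genes of the list with the largest positive differences.
H2-Aa (chr17:34287837-34287904, - strand): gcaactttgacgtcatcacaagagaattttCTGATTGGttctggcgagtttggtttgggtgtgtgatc
H2-Eb1 (chr17:34305775-34305842, + strand): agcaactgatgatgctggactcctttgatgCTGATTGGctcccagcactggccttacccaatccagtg
The box begins 51 bases before the start of H2-Aa and 62 before that of H2-Eb1.

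No class II gene passed under the stricter gate, while the median log2 fold change of the MHC class II presentation list was 0.37 there and 0.33 with the gate used. The share of cells under 2% class II differed between the libraries in the same direction, as given above.

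Classical monocyte genes other than the 3 markers were lower in 7 of 26 and higher in none (median log2 fold change -0.81). Hp was at 14.3 and 42.4 normalized CPM in CD11c-YFP monocytes, against 155 in MaFIA monocytes (log2 fold change -2.75 ± 0.44, adjusted p = 0.014). Vcan was at 1.02 and 1.84 normalized CPM in CD11c-YFP monocytes, against 73.7 in MaFIA monocytes (log2 fold change -5.84 ± 0.49, adjusted p = 0.00073). A Vcan UMI was found in 0.709, 2.94 and 18.9% of monocytes at 5000 UMIs per cell. Fcgr1 was at 246 and 203 normalized CPM in CD11c-YFP monocytes, against 707 in MaFIA monocytes (log2 fold change -1.64 ± 0.22, adjusted p = 0.0063), and was lower on the CD11c-YFP side both under the 2% limit (380 and 348 CPM, against 1034 CPM) and above it (223 and 170 CPM, against 330 CPM).

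Immediate early and heat shock genes, which cells switch on within minutes of a stimulus or of stress, had 12 of 22 higher and none lower, with a median log2 fold change of 1.82. Fos, a subunit of the factor AP-1, was at 1539.98 and 1440.05 normalized CPM in CD11c-YFP monocytes, against 105 in MaFIA monocytes (log2 fold change 3.82 ± 0.23, adjusted p = 0.00018). Egr1, a zinc finger factor, was at 473 and 387 normalized CPM in CD11c-YFP monocytes, against 17.9 in MaFIA monocytes (log2 fold change 4.59 ± 0.32, adjusted p = 0.00038). The same genes differed in other cells, with Fos at 1195 and 1323 normalized CPM in CD11c-YFP macrophages, against 27.1 in MaFIA macrophages. In the test of the difference between populations, 7 of 22 immediate early and heat shock genes passed, Fos among them (log2 difference -1.71 ± 0.21, adjusted p = 0.004), and each had a smaller gap in monocytes than in macrophages.

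Among 39 myeloid transcription factor genes, 11 were higher and none lower, several of them immediate early genes themselves. Nr4a3, an orphan nuclear receptor, was at 64.02 and 95.9 normalized CPM in CD11c-YFP monocytes, against 3.82 in MaFIA monocytes (log2 fold change 4.31 ± 0.45, adjusted p = 0.0026). Id3, an inhibitor of basic helix-loop-helix factors, was at 54.3 and 36.9 normalized CPM in CD11c-YFP monocytes, against 4.58 in MaFIA monocytes (log2 fold change 3.35 ± 0.46, adjusted p = 0.0072). Chemokine and cytokine genes went both ways. Of 16 chemokine genes, 4 were higher, among them Ccl3 (log2 fold change 2.93 ± 0.32, adjusted p = 0.0028) and the neutrophil attractant Cxcl2 (4.17 ± 0.64, adjusted p = 0.012), 1 was lower, Cxcl10, and 11 were not called. Of 32 innate sensing and cytokine genes, 6 were higher, among them the vessel growth factor Vegfa (4.28 ± 0.64, adjusted p = 0.011) and the lipopolysaccharide co-receptor Cd14 (2.49 ± 0.35, adjusted p = 0.0084), 4 were lower, among them the cytokine gene Il27 (-2.48 ± 0.41, adjusted p = 0.016), and 22 were not called. Cxcl2 was at 186 and 537 normalized CPM in CD11c-YFP monocytes, against 19.5 in MaFIA monocytes.

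**Figure D5:**
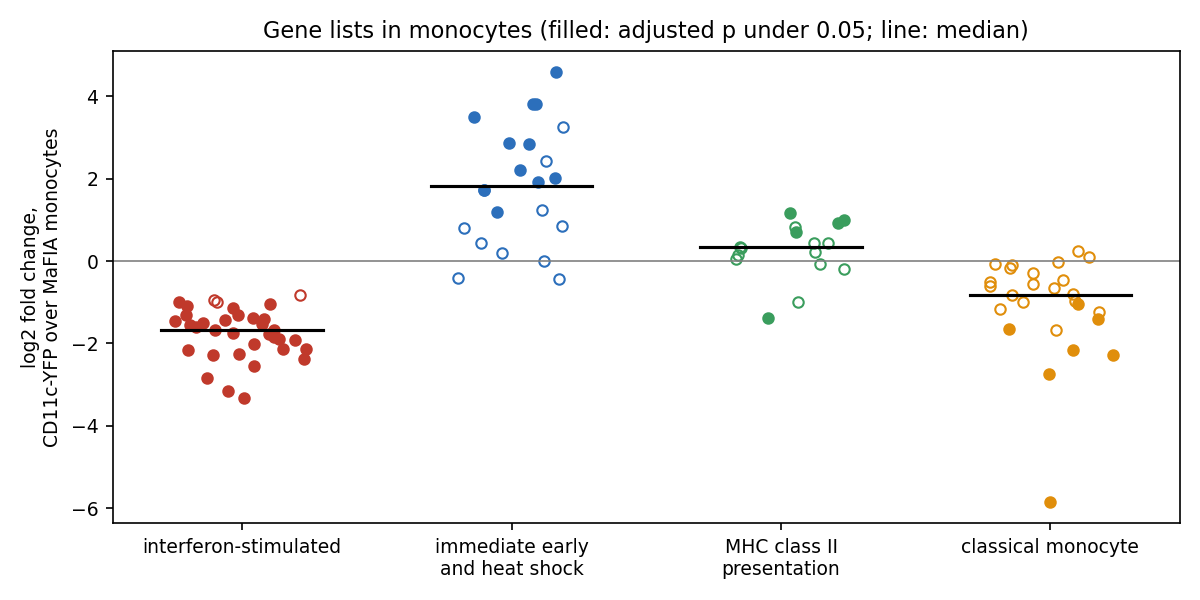
Log2 fold change of single genes, CD11c-YFP over MaFIA monocytes, in 4 gene lists, with filled points for an adjusted p under 0.05, open points for the others and a black line at the median. Interferon-stimulated genes lie below 0 (median -1.66), and immediate early and heat shock genes lie mostly above it (median 1.82).

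Proliferation genes were lower in 7 of 29, with a median log2 fold change of -1.46. Cdk1, the kinase that drives mitosis, was at 1.02 and 1.84 normalized CPM in CD11c-YFP monocytes, against 21.4 in MaFIA monocytes (log2 fold change -4.06 ± 0.64, adjusted p = 0.014). Once cells with T or B cell UMIs were left out, 122, 31 and 145 monocytes remained and none of 24 proliferation genes passed (median -0.19). By DESeq2 none of 8 proliferation genes with an adjusted p passed. B cell genes summed to 330 and 420 normalized CPM in CD11c-YFP monocytes, against 618 in MaFIA monocytes.

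Csf1r did not differ detectably between the lines, at 530.1 and 478 normalized CPM in CD11c-YFP monocytes, against 499.6 in MaFIA monocytes (log2 fold change 0.02 ± 0.21, adjusted p = 0.99), which allows a difference of either sign within its error. S100a4 (log2 fold change -0.30 ± 0.16, adjusted p = 0.46), Itgam (-0.40 ± 0.35, adjusted p = 0.69), Adgre1 (0.19 ± 0.40, adjusted p = 0.89) and Zbtb46 (-0.06 ± 0.44, adjusted p = 0.98) did not pass the test. The median log2 fold change of the lysosomal enzyme genes was 0.24 between the lines.

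The largest differences in single genes apart from YFP and the sex-linked Ddx3y, Eif2s3y, Xist and Tsix were Ddx11, at 18.9 and 33.2 normalized CPM in CD11c-YFP monocytes, against 0 in MaFIA monocytes, Ifi208 (log2 fold change 4.66 ± 0.50, adjusted p = 0.0027), Egr1, Gm49368 (4.58 ± 0.44, adjusted p = 0.0017) and Gm50346 (4.50 ± 0.74, adjusted p = 0.016) on the higher side. On the lower side they were Vcan, Nusap1 (-4.78 ± 0.70, adjusted p = 0.01), Upp1 (-4.57 ± 0.63, adjusted p = 0.0072), Cdk1, Pclaf (-4.02 ± 0.65, adjusted p = 0.015) and A330040F15Rik (-3.76 ± 0.64, adjusted p = 0.017). Ifi208, of the interferon-inducible p200 family, was at 45.6 and 57.2 normalized CPM in CD11c-YFP monocytes, against 1.91 in MaFIA monocytes, the opposite direction to the interferon-stimulated list, and was also higher in CD11c-YFP macrophages, at 28.8 and 27.6 normalized CPM in CD11c-YFP macrophages, against 0.562 in MaFIA macrophages. Upp1, an enzyme that splits uridine, was at 1.54 and 0 normalized CPM in CD11c-YFP monocytes, against 29.8 in MaFIA monocytes.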

How the data were processed

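Each sample's count matrix was used as deposited: per the labels and the study's methods, the authors aligned 10x 3' reads and counted UMIs per gene and barcode. The submitters' notes name bcl2fastq 2.20, STAR 2.7.9a and GRCm39 (mm39), while the study's methods name another build, and which one made the matrices is not settled here. The counts covered 55418 gene entries. Barcodes with 1000 to 7000 genes and at most 10% mitochondrial UMIs were kept. No doublet caller was run, and an alternative left out cells with 2 or more T cell or B cell UMIs. Cell populations were gated by UMI numbers, since no deposited annotation of cells was used here.

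UMIs were summed per library and population (9 sums) and tested with edgeR 4.0.16 (TMM factors, filterByExpr, quasi-likelihood F test) in R 4.3.3, with the library as a block in comparisons of populations, since 1 library holds cells of each kind from 1 preparation. The comparison of reporter lines had no block. P-values were adjusted by Benjamini and Hochberg over all genes fitted, with a threshold of 0.05. The 19 genes set aside (16 read by a gate and 3 markers) entered that adjustment where they passed the filter. They are not given as tests. Between populations, p-values weigh a difference against its variation among the libraries. Between the lines, they weigh it against the spread of the CD11c-YFP libraries alone, since MaFIA had 1 library. DESeq2 1.42.0, other gates, thinning to 5000 UMIs, no filter and leaving out each library were alternatives. Shares have exact (Clopper-Pearson) 95% intervals, which cover counting error only, and a count of 0 allows 3 counts.

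The genes named were first the 8 largest changes per direction in each comparison that passed and reached 20 CPM. Between populations they also had to keep their sign in every library, a condition not set between the lines. Named too were the 3 largest per direction in each of 25 gene lists and the 3 largest differences per direction between populations. The reporters and genes the study names for thymic monocytes were added. Apoe, Flt3 and genes shown as members of the class II split were added with their values known. The members, the lists and the tests were chosen with earlier results of these data known. On simulated counts with known changes, the macrophage comparison found 58.2% of genes changed 2-fold and 93.9% of those changed 4-fold, with 5 false calls among 10541 unchanged genes. The reporter line comparison found 7.46% and 50.0%, with 2 false calls among 9744. These counts were drawn from a common mean per gene with the fitted spread and no differences between libraries. They therefore cannot check the assumption that the single MaFIA library varies as the CD11c-YFP ones do. Some genes that the rule names are not reported here.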

Additional observations from a re-analysis of the deposited data

Results flagged for a closer look

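In 6 genes the difference between CD11c-YFP and MaFIA was itself different in monocytes and in macrophages, by the interaction test of edgeR, and these had the largest such differences in each direction. They were Hmmr (log2 difference -9.17), Esco2 (-8.94), Gm49368 (-8.39), Vdr (3.03), Ccl17 (3.79) and F2rl2 (5.60). Hmmr, a mitosis gene, was at 0 and 0 normalized CPM in CD11c-YFP monocytes, against 15.6 in MaFIA monocytes, and at 14.2 and 24.8 in CD11c-YFP macrophages, against 15.4 in MaFIA macrophages. Esco2, which acts in chromatid cohesion, was at 0 and 0 in CD11c-YFP monocytes, against 7.63 in MaFIA monocytes, and at 10.7 and 14.0 in CD11c-YFP macrophages, against 5.80 in MaFIA macrophages. Fitted differences with a population at 0 depend on the prior count and set no bound. As given above, the proliferation list differed less between the lines in monocytes once cells with T or B cell UMIs were left out. Gm49368 was at 65.0 and 88.5 in CD11c-YFP monocytes, against 3.05 in MaFIA monocytes, and at 256 and 226 in CD11c-YFP macrophages, against 0 in MaFIA macrophages. Vdr, the vitamin D receptor, was at 10.2 and 16.6 in CD11c-YFP monocytes, against 4.58 in MaFIA monocytes, and at 1.51 and 2.12 in CD11c-YFP macrophages, against 5.43 in MaFIA macrophages. Ccl17, a chemokine of dendritic cells, was at 10.8 and 489 in CD11c-YFP monocytes, so that the CD11c-YFP libraries lay far apart, against 77.1 in MaFIA monocytes. F2rl2, a thrombin receptor, was at 6.15 and 14.8 in CD11c-YFP monocytes, against 0.382 in MaFIA monocytes.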

How the results depend on the processing

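For monocytes against Cx3cr1+ macrophages 3498 genes were called, 2374 with no replicate block and 2109 to 2850 with a library left out, and with no filter 43.3% were higher, against 53.3%. For monocytes against Cd209a+ dendritic cells 1943 genes were called, 1217 with no replicate block and 923 to 1552 with a library left out. For CD11c-YFP monocytes against MaFIA monocytes 333 were called (42.0% higher), 145 by DESeq2 (51.0%), 727 with no filter, 28 under the stricter gate (53.6%) and 58 without cells with T or B cell UMIs. The monocyte minus macrophage difference, CD11c-YFP against MaFIA, was called in 144 genes (24.3% positive), 62 by DESeq2 (6.5%), 53 after thinning (7.5%), 480 with no filter and 222 without those cells. No paired analysis of the lines was possible because the labels state no pairing of their libraries, and no library was left out there. Signs turned in 18 cases, whose cause was not tested. Against macrophages, Spib was at -0.13 without MaFIA replicate 2 (left-out range to 1.86) and YFP at -0.27 without CD11c-YFP replicate 2 (range to 0.59) and -0.11 without T or B cell UMIs. Against dendritic cells, Cd8a was at -0.47 after thinning, YFP ranged over -0.25 to 1.05, and for H2-DMb1, monocytes against Cd209a+ dendritic cells, the range was -0.00959 to 0.20 with a library left out (-0.00571 without CD11c-YFP replicate 1). Between the lines, Adgre1 was at -0.038 without T or B cell UMIs. For Csf1r, CD11c-YFP monocytes against MaFIA monocytes, the value was -0.0319 with a C1q sum under 10, -0.058 after thinning, -0.025 with no filter and -0.067 without T or B cell UMIs. After thinning and without T or B cell UMIs, Igkc was at 0.93 and 0.72 and Ly6d at 0.068 and 0.023. Zbtb46 was at 0.080 with a C1q sum under 10 and 0.48 without T or B cell UMIs. Results for single genes and for shares of monocytes with a UMI were followed under the alternatives, and 2547 stayed the same. For a gene this means the same direction and side of the threshold, and for a share a move smaller than its SD. Gene results fell short of the threshold in 310 cases and newly passed it in 18, and 10 shares moved further. Without thinning, the mean share of monocytes with a UMI was 77.4% for Fcgr1, 54.1% for Adgre1, 58.0% for Itgam and 18.1% for Mki67.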

Other observations

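Further gene lists were counted in the same comparisons, in which 17.4% of all genes were higher and 15.2% lower in monocytes than in macrophages, and 10.5% higher and 7.66% lower than in dendritic cells. Of 14 chemokine receptor genes, 3 were higher and 4 lower than in macrophages, and 6 were higher and 3 lower than in dendritic cells. Fpr2, a receptor for bacterial and inflammatory peptides, was among those higher than in both. Of 24 growth factor and cytokine receptor genes, 10 were higher and 5 lower than in macrophages, with Tgfbr1 and Tgfbr2, receptors for the cytokine TGF-beta, among the lower ones. Of 10 Fc receptor genes, Fcgr1 was higher and Fcgr3 lower than in macrophages, a smaller share than over all genes, and 5 were higher and 1 lower than in dendritic cells.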
